A study of Homo sapiens with 6 samples.

Results

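The genes described are 9 genes of the tight junction and of epithelial splicing, EPCAM, OCLN, TJP1, F11R, CLDN1, CLDN3, CLDN7, ESRP1 and ESRP2. They were chosen by name, with earlier results of these data known, from the deposited table of gene expression, which lists 15897 genes. Of the 9 genes, 8 were listed, and CLDN3, which encodes a claudin of tight epithelia, was not listed. RNA was sequenced in 6 libraries of H1650, an established human lung adenocarcinoma cell line, as the labels name the cells. The control group was 3 libraries of cells labelled wild type, and the shSETD2 group was 3 libraries of cells with knockdown of SETD2, the methyltransferase that places the trimethyl mark on lysine 36 of histone H3, by a short hairpin RNA. Several hairpin constructs were made in the study, and neither the labels nor the methods say whether the shSETD2 libraries stand for different constructs or for replicates of the same construct. The series text and the methods speak of work in triplicate but do not say that the 3 libraries of a group were separate cultures, so p-values measure only the spread between these libraries, which may be technical.

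Tight junctions seal the space between neighbouring epithelial cells. Claudins form the strands that set which ions and solutes pass, occludin (OCLN) and the junctional adhesion molecule JAM-A (F11R) lie in the same membranes, and ZO-1 (TJP1) is the scaffold on the cytoplasmic side that ties them to actin. EPCAM is an adhesion protein of epithelial cells that binds CLDN7. ESRP1 and ESRP2 are RNA-binding proteins that select the epithelial exons of genes such as FGFR2, CD44 and CTNND1. In epithelial to mesenchymal transition, factors of the SNAI, ZEB and TWIST families repress many of these genes, and SNAI and ZEB proteins bind the motif CACCTG.

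SETD2 itself had FPKM values (fragments scaled to gene length and library size) of 18.0, 10.2 and 17.6 in control libraries 1 to 3, against 8.97, 8.09 and 12.2 in the libraries labelled shSETD2. Control library 2 was below shSETD2 library 3, so the groups overlapped, and the log2 fold change was -0.58 (SE 0.24, adjusted p = 0.0641, limma). With control library 2 left out it was -0.83 (adjusted p = 0.00666). Libraries of the same group correlated over the genes at 0.982 to 0.990 (Pearson's r of log2(FPKM + 1), with genes not being independent) and libraries of different groups at 0.701 to 0.707. The lung lineage markers examined here were low or not listed in both groups. NKX2-1, the lineage factor of lung epithelium, was at 1.71, 1.80 and 1.44 FPKM in control and listed at 0 in each shSETD2 library, and NAPSA and the surfactant genes SFTPB, SFTPC, SFTPA1 and SFTPD were not listed. The summed FPKM of the 4 listed of 13 lung lineage markers was 5.60 to 6.21 in control and 2.22 to 2.51 in shSETD2. That of the 11 listed of 13 kidney lineage markers was 28.2 to 30.9 in control and 61.0 to 72.1 in shSETD2, with PAX8 at no more than 0.0368 FPKM in control and at 35.2, 28.1 and 29.2 FPKM in shSETD2. The 3 listed neurofilament genes summed to 63.6 to 68.4 FPKM in control and to 0 in shSETD2. The labels give the same cell line for both groups, these markers do not settle whether both were the same line, and a difference in the cells and the knockdown cannot be told apart. The words rose and fell are therefore used for differences between the libraries of the groups, and in bulk RNA fewer cells of a type and less RNA per cell cannot be told apart.

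Among the members, the groups were separated most by CLDN1, which was near the bottom of the table in control and near its top in shSETD2. Of the 5 members with a mean of at least 0.5 FPKM over the 6 libraries, 2 rose in shSETD2 (CLDN1 and TJP1), 1 fell (ESRP2), and OCLN and F11R did not pass the threshold. The test was limma on log2(FPKM + 1), fitted over all 14068 genes with that mean and adjusted with the Benjamini-Hochberg method, with a threshold of 0.05. Changes of this kind were common in the table, where 78.6% of all genes tested passed, 26.8% as higher and 51.8% as lower in shSETD2. The groups did not overlap for CLDN1, TJP1 and ESRP2, as for 80.9% of all genes tested. Over all genes tested the median change was -0.29 on the log2 scale, and relative to it the 5 members differed by 7.24 (CLDN1), 0.94 (TJP1), 0.37 (OCLN), -0.43 (F11R) and -1.22 (ESRP2). After median ratio scaling, which brought this median to -0.01 and moved the share of higher genes among those called from 34.1% to 49.6%, OCLN also passed as higher, and the calls of the other 4 were the same. The remaining 3 listed members, EPCAM, CLDN7 and ESRP1, had a mean under 0.5 FPKM and were tested only in a fit with no filter, in which 76.3% of all 15897 genes passed. The filter uses the mean over both groups, so a gene near 0 in either group passed it only through the other. The direction of such a gene was then fixed by the filter. This holds for ESRP2 and, in the lists below, for genes such as CLDN11, JAM3, CD44, FGFR2, SNAI2, TWIST1 and PAX8.

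**Figure D1:**
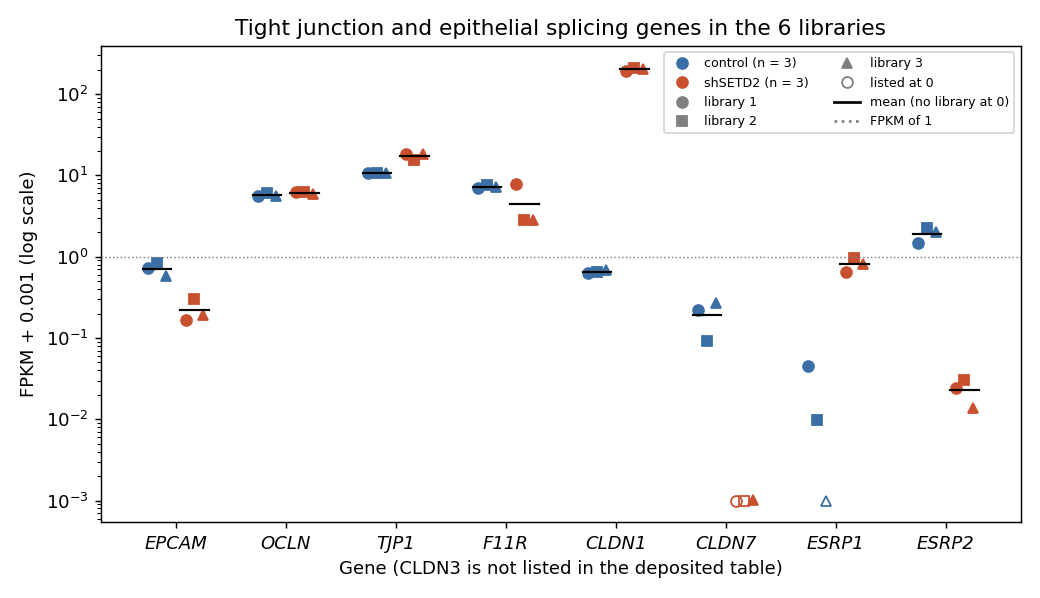
FPKM plus 0.001 of the 8 listed members on a log axis, with 1 point for each library, control in blue and shSETD2 in red, the library number as the shape, open symbols for values of 0, and a line at the mean of groups with no library at 0. CLDN1 rose from a mean of 0.651 FPKM to a mean of 202.6 FPKM, ESRP1 and ESRP2 changed places, and F11R of shSETD2 library 1 lay with the control libraries.

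CLDN1 encodes claudin-1, a sealing claudin of skin and of many other epithelia. The gene (ENSG00000163347.5_2, GRCh37 chr3:190023490-190040264, minus strand) was at 0.629, 0.640 and 0.685 FPKM in the 3 control libraries and at 194.2, 212.3 and 201.3 FPKM in shSETD2 libraries 1 to 3. The groups were far apart, and within each group the libraries lay close together. The mean was 0.651 ± 0.0296 FPKM in control and 202.6 ± 9.12 FPKM in shSETD2 (SD, n = 3), a ratio of 311. In the control libraries 14.3% of the listed genes had a lower mean than CLDN1, and in the shSETD2 libraries 99.5% did. In log2(FPKM + 1), where the pseudocount makes changes of low genes look smaller, the difference was 6.94 (SE 0.047, 95% interval 6.83 to 7.06, adjusted p = 2.87e-09, limma). No stretch of 50 bases of the CLDN1 transcripts occurs in a transcript of another gene in the annotation used here. The gene outside the lists whose 6 values lay nearest to those of CLDN1 was CXCL2, which encodes a neutrophil-attracting chemokine, at 0.316, 1.12 and 0.506 FPKM in control and 197.1, 206.2 and 206.2 FPKM in shSETD2 (Euclidean distance 0.51 over the 6 values of log2(FPKM + 1)).

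CLDN1 lies head to head with CLDN16, a claudin of the thick ascending limb of the kidney (chr3:190040330-190129932, plus strand), and the 65 bases between the starts of these genes are shown because CLDN16 was also low in control. CLDN16 was at 0, 0.0258 and 0 FPKM in the control libraries and at 0.802, 0.897 and 0.785 FPKM in the shSETD2 libraries, and its mean was under the filter. Both genes of the pair were thus higher in every shSETD2 library than in any control library, CLDN16 at a far lower level. The stretch, on the plus strand of GRCh37 chr3:190040265-190040329, holds 80% G and C and 0 copies of CANNTG, the E-box that contains CACCTG.
CLDN1 to CLDN16: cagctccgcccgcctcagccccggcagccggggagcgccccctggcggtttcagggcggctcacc
In the RefSeq table of promoters (GRCh38.p14), 5 of the 9 members had an entry (CLDN1, CLDN3, CLDN7, OCLN and TJP1), and the 250 bases before each start were searched on both strands for the SNAI and ZEB motif CACCTG, for the E-box CANNTG, which includes it, and for a motif of the GRHL factors, AACNNGTT. Of all 35116 windows of this length, 17.5% held CACCTG, 61.8% held CANNTG and 3.00% held AACNNGTT. The windows of CLDN1 and CLDN3 held none of the 3 motifs, as did 3 of the 4 windows of TJP1, and each window of OCLN held 1 CACCTG.

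CLDN7 encodes claudin-7, found along the basolateral side of epithelial cells and bound by EPCAM. The gene (ENSG00000181885.18_3, chr17:7163222-7167302, minus strand) was at 0.219, 0.0920 and 0.266 FPKM in control, and it was listed at 0, 0 and 2.39e-05 FPKM in shSETD2. Its level was low in every library and lower in each shSETD2 library than in any control library. A fit with no filter on low values gave a log2 fold change of -0.25 (SE 0.057, adjusted p = 0.00861, limma), which was -4.22 with a pseudocount of 0.01 (adjusted p = 0.000208) and -0.08 under quantile normalization (adjusted p = 0.219). Of its distinct stretches of 50 bases, 8.25% also occur in transcripts of the gene ENSG00000262302. One of the 2 RefSeq windows of CLDN7 held 4 copies of CACCTG, and 0.122% of all windows held as many. The last 30 bases of this window, GRCh38.p14 chr17:7262479-7262508 on the minus strand, are shown with 2 of these copies in capitals, the first of them read on the opposite strand as CAGGTG.
CLDN7: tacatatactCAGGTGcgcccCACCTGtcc
A match describes the letters and says nothing about binding in these cells.

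The difference of log2(FPKM + 1) between CLDN1 and CLDN7 within a library was 0.47 ± 0.099 in control and 7.67 ± 0.064 in shSETD2 (SD, n = 3), so it grew by 7.20, and with a pseudocount of 0.01 by 12.5. In a two-sided exact permutation test p was 0.1, the smallest value that 3 libraries against 3 can give. This pair is 1 of 6 pairs of related genes compared in this way, of which 4 are given here, and the adjusted p over the 6 pairs was 0.1 for each of the 4. The pairs with CLDN3 could not be made.

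The 10 listed claudin genes together were at 9.72, 14.7 and 14.8 FPKM in control and at 209.3, 226.3 and 216.5 FPKM in shSETD2. FPKM is scaled to gene length, so the genes can be set beside each other on this scale. CLDN1 took 5.15 ± 1.16% of the sum in control and 93.2 ± 0.539% in shSETD2 (SD, n = 3). In control the sum was mostly CLDN12, with 50.8 ± 10.5%, and CLDN15, a pore-forming claudin of the intestine, with 37.1 ± 6.49%. Their shares in shSETD2 were 1.51% and 0.726%, while CLDN11, known from myelin and the testis, took 3.58%.

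**Figure D2:**
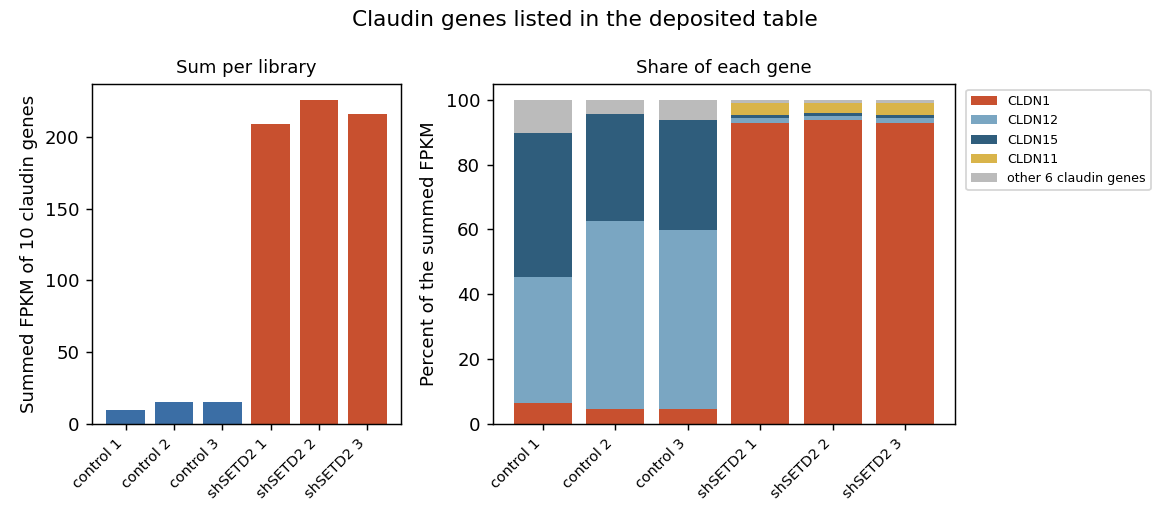
Left, summed FPKM of the 10 listed claudin genes in each library, with control in blue and shSETD2 in red. Right, the percent of that sum held by CLDN1, CLDN12, CLDN15, CLDN11 and the other 6 genes in each library, where CLDN1 held 4.34% to 6.48% in control and 92.8% to 93.8% in shSETD2.

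Of 19 claudin genes that are not members, 8 were listed and 4 could be tested, of which 2 rose and 2 fell. The median log2 fold change of these 4 was -0.04, against -0.29 for all genes tested. CLDN11 was listed at 0, 0 and 0.0286 FPKM in control and was at 7.89, 7.29 and 8.10 FPKM in shSETD2 (log2 fold change 3.12, adjusted p = 7.48e-08, limma), and CLDN23 rose by 0.73 on this scale. CLDN15 fell from 4.33, 4.84 and 5.02 FPKM to 1.53, 1.59 and 1.61 FPKM (-1.15, adjusted p = 6.93e-06). CLDN12 was at 3.77, 8.60 and 8.17 FPKM in control and 3.67, 3.03 and 3.11 FPKM in shSETD2 (-0.81, adjusted p = 0.0300), and its fall did not pass after median ratio scaling. CLDN4, often made together with CLDN3 and CLDN7, was at most 0.208 FPKM in any library. It was at 0.0463, 0.0922 and 0.0625 FPKM in control and at 0.196, 0.121 and 0.208 FPKM in shSETD2, the opposite direction to CLDN7. With no filter the log2 fold change of CLDN4 was 0.14 (adjusted p = 0.0173, limma).

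OCLN encodes occludin, a membrane protein of the junction with 4 passes through the membrane. The gene (ENSG00000197822.10_2, chr5:68788119-68853931, plus strand) was at 5.55, 6.05 and 5.59 FPKM in control and at 6.18, 6.29 and 5.83 FPKM in shSETD2. The groups overlapped, with shSETD2 library 3 below control library 2. The means were 5.73 ± 0.280 and 6.10 ± 0.240 FPKM (SD, n = 3), and the change was 0.08 in log2 (SE 0.055, 95% interval -0.06 to 0.21, adjusted p = 0.238, limma). After median ratio scaling it was 0.38 (adjusted p = 0.000654) and after quantile normalization 0.22 (adjusted p = 0.00821), so the call depended on how the libraries were scaled. Of its stretches of 50 bases, 6.09% occur in transcripts of another gene, mostly the pseudogene OCLNP1. The nearest gene in pattern was DMXL1 (distance 0.11).

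MARVELD2 encodes tricellulin, a relative of occludin at the corners where cells meet, and it rose from 1.06, 0.804 and 0.777 FPKM in control to 2.80, 3.25 and 3.84 FPKM in shSETD2. The excess of OCLN over MARVELD2 in log2(FPKM + 1) was 1.84 ± 0.15 in control and 0.73 ± 0.21 in shSETD2 (SD, n = 3; exact permutation p = 0.1). The excess was smaller in each shSETD2 library than in any control library, with a change of -1.11 at a pseudocount of 1 and of -1.81 at 0.01.

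F11R encodes JAM-A, which recruits polarity proteins to the forming junction. The gene (ENSG00000158769.17_3, chr1:160965001-160991138, minus strand) was at 7.02, 7.69 and 7.22 FPKM in control and at 7.80, 2.82 and 2.85 FPKM in shSETD2 libraries 1 to 3. The shSETD2 libraries did not act as 1 group here, since library 1 was above every control library and libraries 2 and 3 were below all of them. The mean was 7.31 ± 0.348 FPKM in control and 4.49 ± 2.87 FPKM in shSETD2 (SD, n = 3). F11R differed by -0.72 on the log2 scale (SE 0.32, 95% interval -1.502 to 0.07, adjusted p = 0.0831, limma). Leaving out shSETD2 library 1 gave -1.12 (adjusted p = 4.64e-05). Such a split of the shSETD2 libraries, with 1 library over 1 log2 unit from the others, which lie within 0.2 of each other, was seen in 131 of 14068 genes tested (0.931%), by a rule chosen after the F11R values were seen. Of the distinct stretches of 50 bases of F11R, 35.9% occur in transcripts of another gene, nearly all of them in ENSG00000270149, a read-through gene that spans TSTD1 and F11R, so the FPKM of F11R can depend on how the authors' tools divided reads between these genes. The part of this sharing in the split was not tested.

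The gene with the pattern nearest to F11R was FAM58A, at 7.21, 6.60 and 7.29 FPKM in control and 6.59, 3.87 and 3.74 FPKM in shSETD2 (distance 0.55). JAM3, another junctional adhesion molecule, was at 4.51, 4.35 and 4.68 FPKM in control and listed at 0 in each shSETD2 library. The excess of F11R over JAM3 in log2(FPKM + 1) was 0.59 ± 0.094 in control and 2.34 ± 0.69 in shSETD2 (SD, n = 3; exact permutation p = 0.1). With JAM3 at 0 this excess in shSETD2 is the value of F11R alone, and its size is set by the pseudocount, with a change of 1.75 at 1 and of 7.94 at 0.01.

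Of 11 further membrane proteins of the junction, 8 were listed and 5 tested, with 2 higher and 3 lower and a median log2 fold change of -0.58. Those higher were LSR, which recruits tricellulin (1.25), and MARVELD2 (1.19). Those lower were JAM3, listed at 0 in shSETD2, ILDR2 (-1.05) and CXADR, the coxsackievirus and adenovirus receptor (-0.58).

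TJP1 encodes ZO-1. The gene (ENSG00000104067.16_4, chr15:29991571-30261068, minus strand) was at 10.6 FPKM in each control library and at 18.2, 15.6 and 18.2 FPKM in shSETD2 libraries 1 to 3. Each shSETD2 library was above every control library, and the spread was wider in shSETD2. The means were 10.6 ± 0.0413 and 17.3 ± 1.497 FPKM (SD, n = 3), a ratio of 1.63, and the log2 fold change was 0.65 (SE 0.067, 95% interval 0.49 to 0.82, adjusted p = 0.000128, limma). No stretch of 50 bases of TJP1 is shared with another gene. The nearest gene in pattern was ESPL1, which encodes separase (distance 0.15), at 10.97, 10.3 and 10.3 FPKM in control and 17.0, 15.7 and 17.0 FPKM in shSETD2.

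TJP3, which encodes ZO-3, a scaffold related to ZO-1, fell by 0.70 on the log2 scale, from 1.31, 0.902 and 1.11 FPKM in control to 0.419, 0.254 and 0.224 FPKM in shSETD2 (adjusted p = 0.00061, limma). TJP1 and TJP3 thus passed in opposite directions.

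Of the 24 scaffold and polarity genes of the junction that are not members, all were listed and tested, 8 as higher, 11 as lower and 5 as neither, with a median log2 fold change of -0.08. After median ratio scaling 12 were higher and 10 lower, so the balance of directions depended on the scaling. PARD6B, a subunit of the PAR polarity complex, had the largest rise of the list, from 5.97, 6.15 and 5.96 FPKM to 78.1, 86.9 and 75.0 FPKM (3.52), followed by AMOTL2 (2.35) and PARD3 (1.89). AMOT, which encodes angiomotin, had the largest fall, from 49.4, 49.0 and 47.8 FPKM to 5.02, 5.37 and 4.88 FPKM (-3.03), followed by AMOTL1 (-1.57) and PARD3B (-1.49). Within the angiomotin family AMOT and AMOTL1 thus fell while AMOTL2 rose, and within the PAR3 family PARD3 rose while PARD3B fell, with the same directions after median ratio scaling.

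EPCAM was low in both groups and lower in shSETD2. The gene (ENSG00000119888.10_2, chr2:47572297-47614740, plus strand) was at 0.716, 0.830 and 0.582 FPKM in control and at 0.166, 0.301 and 0.193 FPKM in shSETD2. The groups did not overlap, and the means were 0.710 ± 0.124 and 0.220 ± 0.0712 FPKM (SD, n = 3), 3.23 times higher in control. With no filter the log2 fold change was -0.49 (SE 0.070, 95% interval -0.66 to -0.31, adjusted p = 0.00122, limma). It was -1.67 with a pseudocount of 0.01 (adjusted p = 0.00242) and -0.01 under quantile normalization (adjusted p = 0.937). The rank of EPCAM moved little, with 15.6% of the listed genes below it in control and 15.4% in shSETD2, while more genes were at 0 in an shSETD2 library (1189 to 1227) than in a control library (602 to 653).

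ESRP1 and ESRP2 moved in opposite directions. ESRP2 (ENSG00000103067.13_3, chr16:68263014-68272005, minus strand) was at 1.48, 2.28 and 2.04 FPKM in control and at 0.0234, 0.0295 and 0.0127 FPKM in shSETD2. Every control library was above 1 FPKM and every shSETD2 library was near 0, with means of 1.93 ± 0.412 and 0.0219 ± 0.00850 FPKM (SD, n = 3), 88.3 times higher in control. On the log2 scale ESRP2 fell by 1.51 with the pseudocount of 1 (SE 0.11, 95% interval -1.77 to -1.25, adjusted p = 2.32e-05, limma), and the value was -5.94 with one of 0.01. ESRP2 passed the filter on low values only through the control group. The gene overlaps NFATC3 on the opposite strand, and the library kit marks strand, but whether strand was used in counting is not given in the sources used here. The gene nearest in pattern was BMP4, a ligand of the BMP family (distance 0.17), at 1.72, 2.42 and 2.17 FPKM in control and listed at 0 in each shSETD2 library.

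ESRP1 (ENSG00000104413.15_3, chr8:95653302-95719694, plus strand) was at 0.0439, 0.00879 and 0 FPKM in control and at 0.639, 0.962 and 0.808 FPKM in shSETD2. The groups did not overlap, and 3.45% of the listed genes were below ESRP1 in control against 26.8% in shSETD2. With no filter the log2 fold change was 0.82 (SE 0.070, 95% interval 0.65 to 1.00, adjusted p = 0.000115, limma), and its size depended on the pseudocount, with 5.21 at 0.01. ESRP1 minus ESRP2 in log2(FPKM + 1) was -1.25, -1.70 and -1.60 in control libraries 1 to 3 and 0.68, 0.93 and 0.84 in shSETD2 libraries 1 to 3. The sign was thus reversed between the groups in every library, with a change of 2.33 (exact permutation p = 0.1), and of 11.2 with a pseudocount of 0.01. Neither gene was above 2.28 FPKM in any library.

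**Figure D3:**
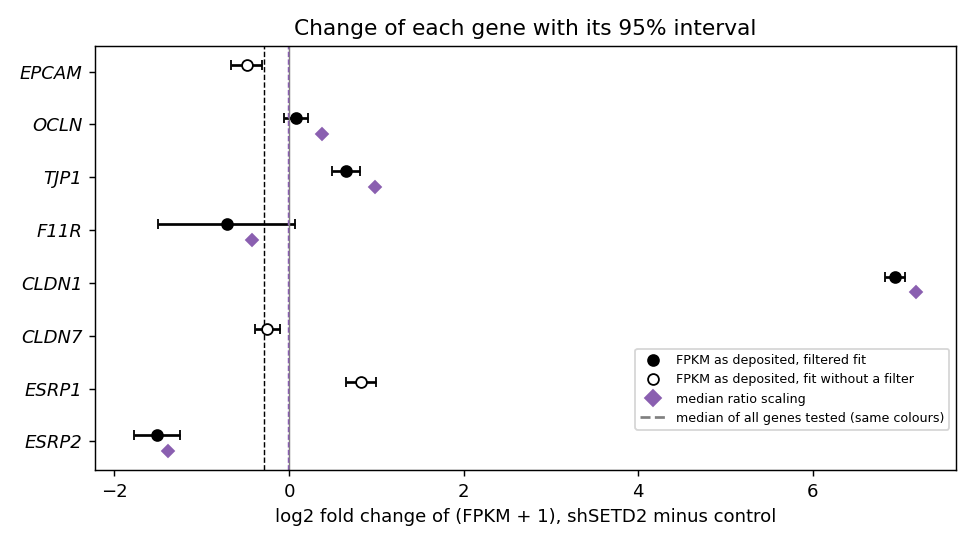
Log2 fold change of FPKM plus 1, shSETD2 minus control, of the 8 listed members with 95% intervals, filled for the 5 members tested and open for the 3 fitted with no filter. Diamonds are the values after median ratio scaling and dashed lines the median of all genes tested, at -0.29 as deposited and at -0.01 after scaling. CLDN1 lies at 6.94, apart from the others, which lie between -1.51 and 0.82.

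Among 8 genes whose exons the ESRP proteins regulate, all tested, 3 rose, 3 fell and 2 did neither, with a median log2 fold change of -0.01, and after median ratio scaling 5 were higher and 3 lower. CD44, a hyaluronan receptor, rose from 0.0801, 0.118 and 0.0941 FPKM to 103.6, 107.1 and 102.9 FPKM (6.59), CTNND1, which encodes p120 catenin, rose by 0.90, and ARHGEF11 by 0.39. FGFR2 went from 3.52, 4.15 and 3.74 FPKM in control to a listed value of 0 in each shSETD2 library, ENAH fell by 1.25 and SLK by 0.94. These are levels of whole genes, and the exons that ESRP proteins select were not measured in the gene table. Of 14 other splicing regulators, 13 were listed and 12 tested, with 3 higher, 5 lower and 4 neither and a median of -0.09, and after median ratio scaling 6 were higher and 3 lower. CELF2 (1.27), MBNL2 (0.61) and MBNL1 (0.30) rose, and MBNL3 (-1.26), PTBP2 (-0.93) and SRSF1 (-0.87) fell.

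The order of the members by mean FPKM, a scale per length, differed between the groups. In control it was TJP1, F11R, OCLN, ESRP2, EPCAM, CLDN1, CLDN7 and ESRP1, and of neighbours in this order only EPCAM and CLDN1 overlapped. In shSETD2 it was CLDN1, TJP1, OCLN, F11R, ESRP1, EPCAM, ESRP2 and CLDN7, and only OCLN and F11R overlapped.

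Transcription factors tied to epithelial genes also moved in both directions, where 78.6% of all genes tested passed, 26.8% as higher and 51.8% as lower. Whether these factors act on the members in these cells was not tested. Of 11 transcription factors of epithelial to mesenchymal transition, 9 were listed and 8 tested. Of these 8, 2 were higher and 5 lower, with a median log2 fold change of -0.88. SNAI2, TWIST1, TWIST2 and TCF4 were near 0 in shSETD2 and passed the filter only through control. The filter thus fixed their direction and in part this median. SNAI2 was at 14.4, 14.5 and 14.1 FPKM in control and at 0, 0 and 0.0321 FPKM in shSETD2 (-3.92), TWIST1 was at 7.34, 8.02 and 8.37 FPKM in control and listed at 0 in shSETD2, and TWIST2 was listed at 0 there too. FOXC2 rose by 2.90 and SNAI1 by 0.86, and ZEB1 was at 4.96, 3.00 and 3.31 FPKM in control and at 1.95, 4.16 and 3.85 FPKM in shSETD2 (-0.16, adjusted p = 0.579, limma). Of 10 factors that maintain epithelial genes, 4 were listed. KLF4 (2.24) and ELF3 (2.10) rose, KLF5 fell as deposited (-0.51) and did not pass after median ratio scaling, GRHL1 did not pass, and the median of the 4 was 0.95. ELF3, with a mean of 0.221 FPKM in control, passed the filter only through shSETD2, so its direction was fixed by the filter too. GRHL2, GRHL3, OVOL1 and OVOL2 were not listed.

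Other epithelial markers mostly rose with CLDN1. Of 20 markers, 16 were listed and 14 tested, with 12 higher and 2 lower and a median log2 fold change of 1.98. Of these, LAMB3, KRT7, PKP3 and AP1M2 passed the filter only through shSETD2 and CDH1 only through control, so the filter fixed their direction. The summed FPKM of the listed markers was 65.2 to 67.2 in control and 642.7 to 713.0 in shSETD2. LAMB3, a laminin chain of the basement membrane, rose by 6.80, KRT7 by 6.34 and KRT8 by 4.62. CDH1, which encodes E-cadherin, fell from 1.52, 1.43 and 0.860 FPKM to 0.0107, 0.0140 and 0.0114 FPKM (-1.15), CDS1 fell by 1.32, and KRT19, RAB25, SPINT1 and PRSS8 were not listed. Of 14 mesenchymal markers, 10 were listed and 6 tested, with 3 higher and 3 lower and a median of -0.59. FN1 (1.03), VIM (0.99) and CDH2 (0.17) rose, and SPARC (-2.42), COL1A1 (-1.57) and ACTA2 (-1.34) fell. SPARC and COL1A1, with means of 0.0225 and 0.269 FPKM in shSETD2, passed the filter only through control. The filter thus fixed their direction and in part this median. The summed FPKM of the list was 100.8 to 117.0 in control and 167.6 to 177.5 in shSETD2. This sum mainly followed VIM, which was at 62.3, 60.6 and 76.7 FPKM in control and at 130.8, 128.8 and 137.5 FPKM in shSETD2.

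**Figure D4:**
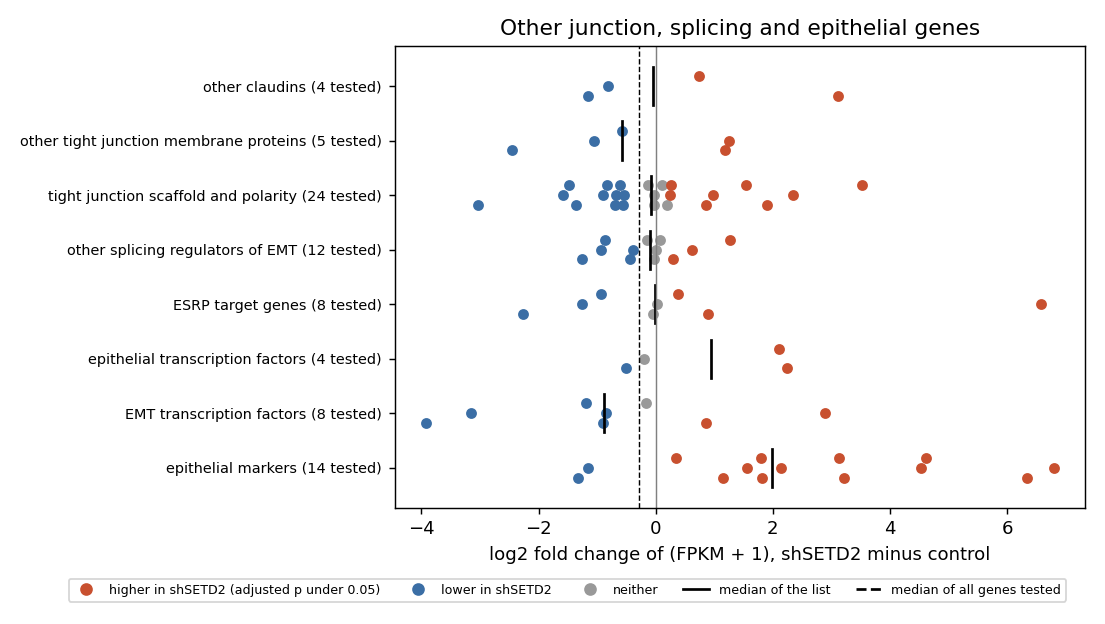
Log2 fold change of FPKM plus 1, shSETD2 minus control, of each tested gene of 8 lists, in red where higher, blue where lower and grey where neither at an adjusted p under 0.05. Black lines are the medians of the lists, from -0.88 for transcription factors of epithelial to mesenchymal transition to 1.98 for epithelial markers. The dashed line is the median of all genes tested, -0.29. Some genes passed the filter only through the group where they were high, so the filter in part set the medians of their lists.

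Markers of both lineages moved within their own lists too. Of the lung lineage markers tested, LAMP3 rose (0.50), and NKX2-1, FOXA1 (from 1.54, 2.97 and 2.66 FPKM to 0.384, 0.444 and 0.529 FPKM) and AGER (-0.41) fell, the last not after median ratio scaling. Of 10 kidney lineage markers tested, 5 rose, among them PAX8 (4.96) and PAX2 (2.66). The other 5 fell, among them SALL1 and SIX2, which were listed at 0 in each shSETD2 library and had been at 7.09 to 8.01 FPKM and 5.19 to 5.84 FPKM in control. The neurofilament genes NEFM (36.5 to 39.1 FPKM in control), NEFL (16.4 to 24.1) and INA (6.98 to 8.04) were listed at 0 in each shSETD2 library.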

How the data were processed

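RNA was sequenced from 3 control and 3 shSETD2 libraries of cells labelled H1650. Per the labels and the methods of the study, total RNA was extracted with Trizol, libraries were made with a stranded kit, reads were mapped to hg19 (GRCh37) with HISAT2 and genes quantified with Ballgown, and the authors deposited FPKM for 15897 genes. Tool versions, and how the listed genes were selected, are not given in the sources used here. A further deposited table holds the authors' own comparison (fold changes, p and q values) and was not used. FPKM does not hold the number of reads, so depth and counting error are unknown, and the spread over 3 libraries is the only error given. The sum of all FPKM was 218769 to 224603 per library.

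The 14068 genes whose mean FPKM reached 0.5 were tested on log2(FPKM + 1) with limma 3.58.1 (lmFit, eBayes with an intensity trend) in R 4.3.3, with Benjamini-Hochberg adjustment over all genes tested and a threshold of 0.05. Related genes (ESRP1 and ESRP2, CLDN1 and CLDN7, OCLN and MARVELD2, F11R and JAM3) were compared within libraries with exact permutation tests in Python 3.11.15 (scipy 1.17.1). The fit was run on simulated data in which few genes changed. In the deposited data most genes passed, so that run does not bear on the calls given here. Shared stretches of 50 bases were counted in the GENCODE v44 transcripts lifted to GRCh37, and promoters came from RefSeq. All members were named. Of each other list, up to 3 genes with the largest rise and 3 with the largest fall among those past the threshold were named, with others named for a count or a level after their values were seen, and of the other genes the protein-coding gene nearest in log2(FPKM + 1) to each member tested. Some genes and pairs that these rules cover are not reported here. The members and lists were chosen with earlier results of these data known. Alternatives were pseudocounts of 0.1 and 0.01, no filter or a stricter one (mean FPKM of 5), scaling by upper quartile, by quantiles or by median ratios, a fit without the intensity trend, a separate linear model of each gene, a replicate block and each library left out.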

Additional observations from a re-analysis of the deposited data

How the results depend on the processing

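CLDN1 (6.91 to 8.26) and TJP1 (0.62 to 0.98) stayed higher, with adjusted p from limma or the ordinary linear model of at most 0.0017, under all 16 alternatives, and ESRP2 stayed lower (-5.94 to -1.09) under the 15 that tested it. OCLN passed as higher under quantile normalization (0.22) and median ratio scaling (0.38). F11R was -1.12 to -0.51 when each library was left out, and it passed only without shSETD2 replicate 1, and it was -0.42 after median ratio scaling. Of the members, 2 were higher, and 3 with no filter (ESRP1 too), under quantile normalization or under median ratio scaling (OCLN too). The number lower was 1, but 3 with no filter (EPCAM, CLDN7 and ESRP2), 0 at a mean FPKM of at least 5, where ESRP2 was not tested, and 1 to 2 when each library was left out. All genes called numbered 11057, 5647 at a mean FPKM of at least 5, where 7078 genes were tested, and 10519 to 10801 when each library was left out. With the replicate block 10976 genes were called, and no call of a member changed. Deviations of libraries with the same number correlated at -0.0237, 0.0177 and -0.0077, and those of libraries with different numbers at -0.0554 to 0.0628. What the numbers stand for is not given, and these values cannot tell whether libraries with the same number were handled together. The unknown depth limits what can be said of members under 1 FPKM.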
